A study of Homo sapiens with 6 samples.

Results

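Open chromatin was examined at 4 oncogene loci of T-ALL, an acute leukaemia of T-cell precursors: TAL1 together with its neighbour STIL, LMO1, LMO2 and LYL1. The members were all intervals in the authors' ATAC-seq peak lists that overlapped one of 4 fixed hg19 windows, 47640000 to 47800000 on chromosome 1 (TAL1 with STIL), 8220000 to 8320000 and 33850000 to 34000000 on chromosome 11 (LMO1 and LMO2) and 13190000 to 13235000 on chromosome 19 (LYL1). These windows held 33 of the 116055 intervals of the 6 lists, and merging intervals that overlapped between lines gave 16 of 40110 regions. In this assay the Tn5 enzyme inserts sequencing adapters where chromatin is accessible. The 6 lists came from the established human T-ALL lines MOLT-4, CCRF-CEM, TALL-1, KOPT-K1, HBP-ALL and DND-41 (spelled as in the labels), grown in RPMI medium with serum and without any labelled treatment, genotype change or control. Each line had 1 library, so no replicate error exists, no test between lines was possible, and a difference between lines cannot be told apart from a difference between preparations.

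TAL1 and LYL1 are related basic helix-loop-helix transcription factors that bind E-box DNA together with E proteins, and LMO1 and LMO2 are LIM-domain adaptors that bridge TAL1 or LYL1 to LDB1 and GATA factors. TAL1, LYL1 and LMO2 act in blood stem and progenitor cells and are largely silent in maturing T cells. T-ALL can switch on these genes and LMO1, singly or together, by translocation, by deletion or by small changes in non-coding DNA. STIL, a centriole assembly gene of dividing cells, lies upstream of TAL1 and is read in the same direction. A deletion between them, known in CCRF-CEM, places TAL1 behind the STIL promoter, and KOPT-K1 is known for a translocation next to LMO2. The peak lists contain neither reads nor breakpoints and measure none of these changes. No hg19 annotation was used, so the gene positions mentioned below are general knowledge of that build and were not intersected with the peaks.

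The RefSeq promoter table (build GRCh38.p14) matched 4 of the 5 genes, all but LMO2. The 250 bases before the start of each are shown because the results turn on whether chromatin near these starts was called open. Every line had a call at STIL. At LYL1 1 line had a weak call, and close to the LMO1 start MOLT-4 alone had an interval (−log10 p 10.6). The stretch from 47691422 to 47704872 on chromosome 1 is known to hold the TAL1 starts listed in that table. Its bounds are the facing ends of neighbouring MOLT-4 intervals, so it is empty in MOLT-4 by the choice of bounds. No other line had an interval in it. The promoter coordinates below are in another build than the peaks and cannot be set against them. Capitals mark GATAA or its reverse complement TTATC, the core of GATA factor sites, and CCAAT or its reverse complement ATTGG, a box common in promoters of dividing cells; both strands were searched.
TAL1, chr1:47232336-47232585, minus strand: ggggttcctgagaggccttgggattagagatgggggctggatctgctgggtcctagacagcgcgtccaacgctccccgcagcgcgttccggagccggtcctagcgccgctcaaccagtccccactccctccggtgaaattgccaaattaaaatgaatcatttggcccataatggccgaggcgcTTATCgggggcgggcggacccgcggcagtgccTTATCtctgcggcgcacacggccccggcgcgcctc
STIL, chr1:47314148-47314397, minus strand: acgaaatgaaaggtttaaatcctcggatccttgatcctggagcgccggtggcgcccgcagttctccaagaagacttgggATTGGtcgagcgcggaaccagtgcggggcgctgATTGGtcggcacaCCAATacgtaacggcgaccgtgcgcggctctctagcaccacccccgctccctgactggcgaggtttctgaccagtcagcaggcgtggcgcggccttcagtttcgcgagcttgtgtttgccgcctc
LMO1, chr11:8268788-8269037, minus strand: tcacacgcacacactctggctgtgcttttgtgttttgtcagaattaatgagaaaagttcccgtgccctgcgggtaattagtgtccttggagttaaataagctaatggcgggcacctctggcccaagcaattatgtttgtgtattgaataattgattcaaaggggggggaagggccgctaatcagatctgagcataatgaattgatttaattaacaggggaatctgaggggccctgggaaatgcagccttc
LYL1, chr19:13102859-13103108, minus strand: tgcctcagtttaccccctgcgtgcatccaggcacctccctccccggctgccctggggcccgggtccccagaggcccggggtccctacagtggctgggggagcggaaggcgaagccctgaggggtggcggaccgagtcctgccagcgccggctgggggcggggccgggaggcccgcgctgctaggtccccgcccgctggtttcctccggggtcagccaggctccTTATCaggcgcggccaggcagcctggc
The TAL1 sequence held 2 GATA matches and the LYL1 sequence 1, against at least 1 match in 20.4% of all 35116 promoter entries and at least 2 in 3.87%. STIL had 3 CCAAT matches, where 32.0% of promoters had at least 1 and 2.93% at least 3. LMO1 had neither motif. The E-box CANNTG was found once in the TAL1 sequence and in none of the other sequences shown, against 61.8% of promoters. A second TAL1 start in the table had none of the 3 motifs. These matches describe letters only, and no binding was measured.

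The 6 lines differed in how many of the 16 regions they had called open. MOLT-4 had a peak in 9 (56.25%), CCRF-CEM in 7 (43.75%), HBP-ALL in 6 (37.5%), KOPT-K1 in 5 (31.25%), DND-41 in 4 (25%) and TALL-1 in 2 (12.5%). Over all merged regions of the genome the shares were 47.3% in MOLT-4, 55.4% in CCRF-CEM, 54.5% in HBP-ALL, 44.8% in KOPT-K1, 44.3% in DND-41 and 40.7% in TALL-1. The order within the windows therefore differed from that of the whole lists, where CCRF-CEM and HBP-ALL came first. Of the 16 regions, 2 held a peak in all 6 lines (12.5%, against 22.6% of all regions) and 11 in 1 line only (68.8%, against 43.2%). The remaining 3 were shared by 5 lines (1 region, where 6.53% of all regions had 5), by 3 lines and by 2. With so few regions these shares are a description, and nothing particular to the loci is read from them.

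Both regions that were open in every line lay at the STIL side of the TAL1 window; TAL1, LMO1, LMO2 and LYL1 themselves had no such region. Of the 11 regions with a single line, 5 belonged to MOLT-4, 4 to CCRF-CEM and 2 to HBP-ALL, and none to DND-41, KOPT-K1 or TALL-1. Genome-wide, 4.55% of regions were called in MOLT-4 alone, 16.0% in CCRF-CEM alone and 11.6% in HBP-ALL alone, and 3.56%, 3.73% and 3.71% in DND-41, KOPT-K1 and TALL-1 alone. TALL-1 had no interval in 3 of the 4 windows, and DND-41 had none in the LMO1 and LYL1 windows. Where an interval is missing, no summit passed the threshold of the lists, a −log10 p of about 5; closed chromatin is not shown by it. At the lowest background of each list, passing took a pileup (the number of tags stacked at a summit) of 6 in CCRF-CEM and 7 in MOLT-4. It took 8 in DND-41, HBP-ALL and KOPT-K1, and 9 in TALL-1, so lower pileups would not have been listed. At 3 times the lowest background the pileup needed was 11 in CCRF-CEM, 12 in MOLT-4 and 13 in KOPT-K1. In DND-41 and HBP-ALL it was 14, and in TALL-1 15.

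**Figure D1:**
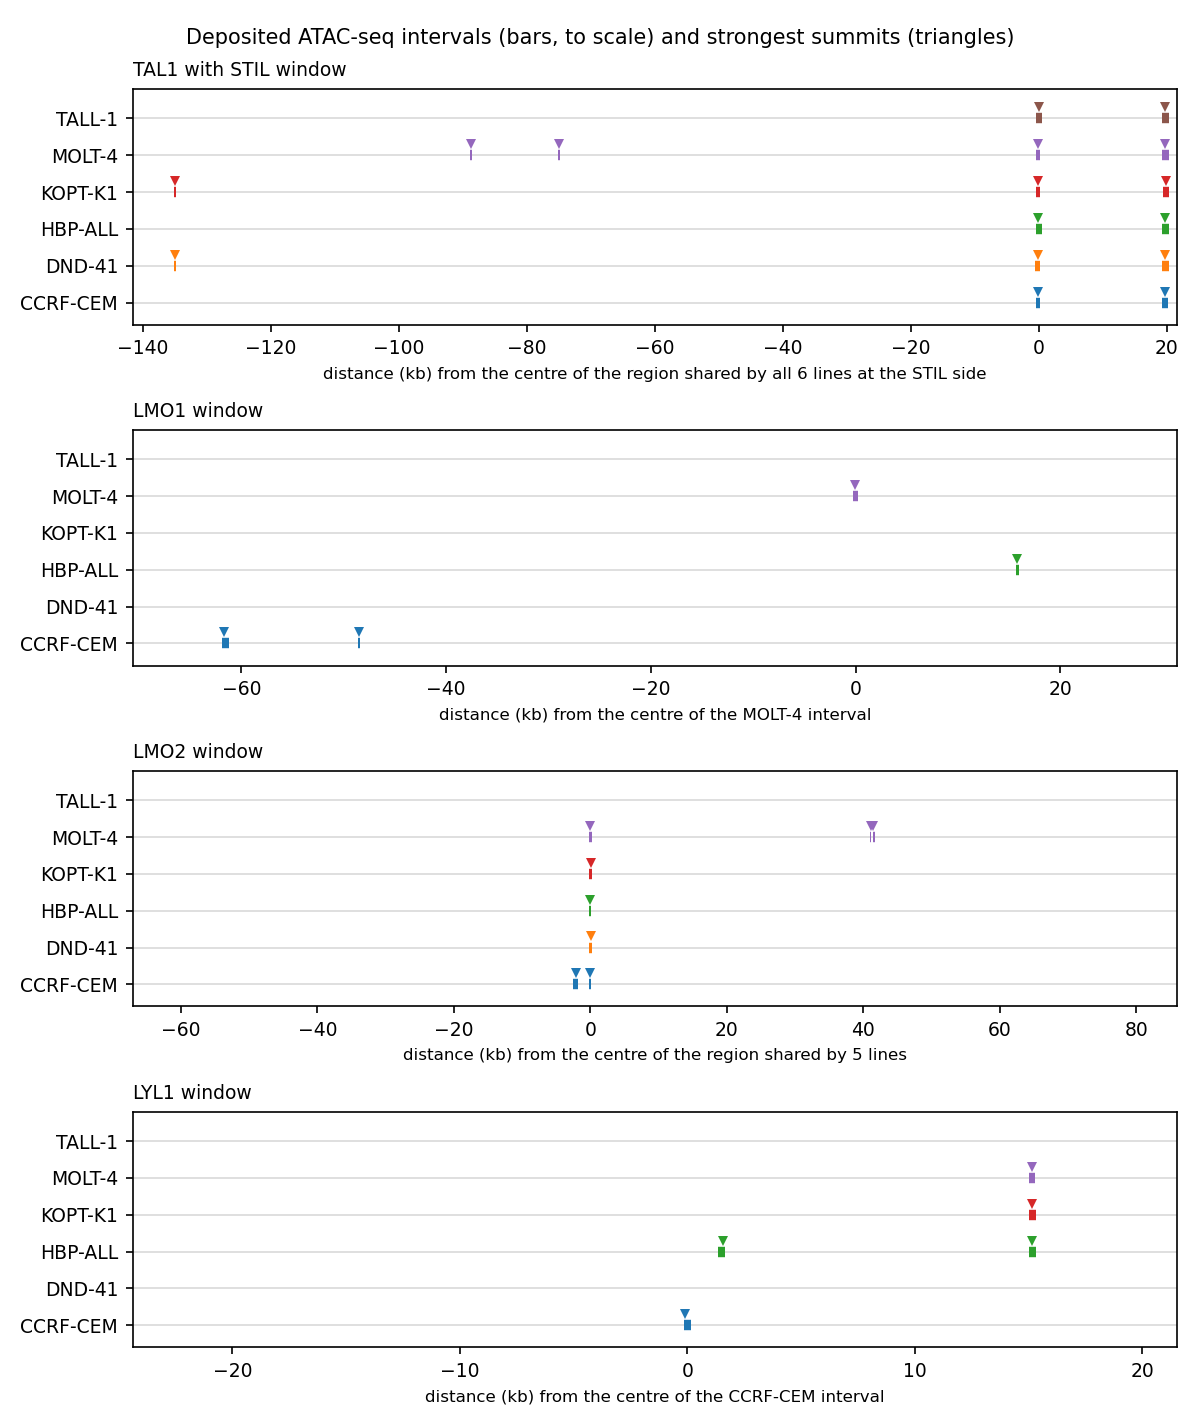
Intervals of the 6 lines in the 4 windows, drawn to scale against the distance in kb from a reference region named under each axis; triangles mark the strongest summit of each interval. The 2 columns filled by all 6 lines lie at the right of the TAL1 with STIL window, MOLT-4 alone has intervals between them and the 2 lines at the far left, and TALL-1 is empty in the other 3 windows.

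The strongest open site of all 4 loci lay at the known start of STIL. The merged region ran from 47779420 to 47780550 on chromosome 1, and the authors' lists gave it 1 interval with 1 summit in each of the 6 lines. The recovered pileup was 60 in HBP-ALL, 61 in MOLT-4, 64 in CCRF-CEM, 69 in DND-41, 71 in KOPT-K1 and 78 in TALL-1. The exact 95% Poisson intervals, which cover counting error only, ran from 45.8 to 77.2 in HBP-ALL and from 61.7 to 97.3 in TALL-1 and so overlapped even between the extremes. In every list the interval was stronger than 91.4% to 93.5% of that line's intervals by −log10 p. It stood at 1.54 to 2.06 times the median pileup of the regions that all lines shared.

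Relative pileup is the log2 of a line's pileup minus the average over lines, set to a median of 0 in each library over 9039 shared regions. At STIL it was −0.18 in HBP-ALL, −0.06 in MOLT-4 and DND-41, 0.00 in TALL-1, 0.10 in KOPT-K1 and 0.14 in CCRF-CEM. Each counting interval included 0. With the authors' fold in place of the pileup the values spread further, from −0.20 in TALL-1 to 0.33 in CCRF-CEM, and KOPT-K1 moved to −0.01. CCRF-CEM, the line known for the deletion that begins inside STIL, had a value higher than that of 59.9% of shared regions in the same library. The authors' fold enrichment over local background was highest there too, at 15.2 against 8.89 to 10.4 in the other lines. Its recovered local background, 3.27 tags, was the lowest of the 6, while the others had 5.19 to 7.89, and CCRF-CEM also had the lowest background of all lists, 0.694 tags against 0.916 to 1.38; the part of this in the fold was not tested.

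The width of the STIL interval varied more than its summit. It was 579 bp in KOPT-K1, 617 bp in CCRF-CEM, 643 bp in MOLT-4, 787 bp in DND-41, 1018 bp in HBP-ALL and 1041 bp in TALL-1. HBP-ALL and TALL-1 thus had intervals about the same length, extended to the upper side, where their ends lay at 47780540 and 47780550 and those of the other 4 lines between 47780160 and 47780206. The summits lay within 116 bp of each other, from 47779904 in CCRF-CEM to 47780020 in TALL-1, and 52.3% of all shared regions had a wider spread (median 123 bp).

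The second region open in every line lay at the upper edge of the window, from 47799217 to 47800403, at the known start of CMPK1, a nucleotide kinase gene and the neighbour of STIL on the other side. It ran past the window's end. Its strongest summit had a pileup of 32 in MOLT-4, 41 in CCRF-CEM, 42 in KOPT-K1, 46 in DND-41 and TALL-1 and 47 in HBP-ALL. MOLT-4 was the lowest line, with a log2 relative pileup of −0.32 (counting interval −0.87 to 0.17), and the other 5 lay between −0.09 and 0.17. Here KOPT-K1, MOLT-4 and TALL-1 had 2 summits in the interval and the other lines 1. The strongest summits spread over 208 bp, a span exceeded by 25.0% of shared regions.

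**Figure D2:**
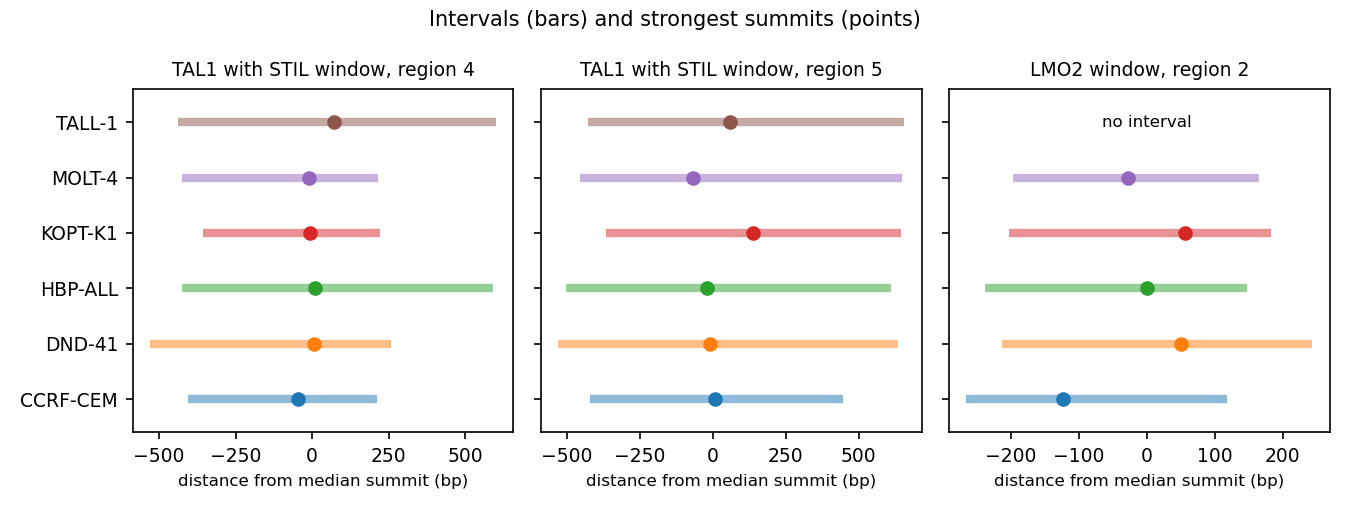
Intervals (bars) and strongest summits (points) of each line at the 3 regions with peaks in 5 or 6 lines, against the distance in bp from the median summit; region numbers count from the low end of each window. The left panel is the STIL region with summits within 116 bp, and the middle one is the CMPK1 region. The right one is the LMO2 region, where the CCRF-CEM summit has the lowest position and TALL-1 has no interval.

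Between the STIL region and the low end of the window only MOLT-4, DND-41 and KOPT-K1 had any interval, and MOLT-4 was the only line with one in or close to TAL1. Its stronger interval lay at 47691127 to 47691422, within the known extent of the TAL1 gene, with a pileup of 24 (15.4 to 35.7) over a local background of 2.57 tags and a −log10 p of 15.99. It was stronger than 52.3% of all MOLT-4 intervals and than 92.8% of the 1825 regions that only MOLT-4 had, whose median pileup was 12. The nearest interval of another line, DND-41, lay 45.9 kb away.

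The weaker MOLT-4 interval lay in the DNA between TAL1 and STIL, just upstream of TAL1, at 47704872 to 47705240 with its summit at 47704991. It was the only interval of any line in the stretch from 47691422 to 47779420. Its pileup was 12 (6.20 to 21.0) over a background of 2.78, and 12 is the smallest pileup that reaches a −log10 p of 5 at that background. The authors gave it a −log10 p of 5.13 and a −log10 q of 2.66, and only 0.759% of the MOLT-4 intervals were weaker. Its rank in the list, 18969 by −log10 p, lies past the 16507 intervals of the shortest list, so it is lost when lists are held to equal length and also with a −log10 p of at least 10. In some T-ALL cells short insertions in DNA upstream of TAL1 create a site for MYB and an enhancer there; the lists hold no sequence and no such change was measured. The nearest intervals of the other lines lay 59.6 kb away in DND-41, 59.7 kb in KOPT-K1 and 74.3 kb in CCRF-CEM, HBP-ALL and TALL-1.

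On the far side of TAL1 from STIL, DND-41 and KOPT-K1 shared a narrow region at 47644907 to 47645229. The pileup was 15 in DND-41 and 14 in KOPT-K1, and the summits, at 47644997 and 47645000, lay 3 bp apart. Both intervals ranked low, above 22.7% of the DND-41 list and 23.7% of the KOPT-K1 list. They were ordinary for regions that only these lines shared, which made up 1.01% of all regions and had a median pileup of 16 in each. At a −log10 p of 9.82 in DND-41 and 9.58 in KOPT-K1, the region is lost in both lines with a −log10 p of at least 10.

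The longest interval-free stretch of the TAL1 with STIL window was therefore shorter in MOLT-4 than in the other lines. In MOLT-4 it ran from 47705241 to 47779522, above the known TAL1 starts. In the other lines it also crossed those starts, so the stretches are unlike. In every line it ended at the known start of STIL. STIL is read from there toward TAL1, so the stretch holds STIL itself and not only the DNA between the genes. In MOLT-4 it was above the median gap of the list, 59.7 kb. Nothing is read from that, since the longest stretch of a window was set beside the median of all gaps. The median gaps of the lists ran from 53.7 kb in HBP-ALL to 62.2 kb in CCRF-CEM. Within the window the longest stretch was 134.2 kb in DND-41, 134.4 kb in KOPT-K1, 139.5 kb in CCRF-CEM, HBP-ALL and TALL-1 and 74.3 kb in MOLT-4. Followed past the window to the next interval, it was 594.3 kb in TALL-1, 588.4 kb in HBP-ALL, 205.6 kb in CCRF-CEM, 134.4 kb in KOPT-K1 and 134.2 kb in DND-41. Counted singly, 3.87% of the gaps in the HBP-ALL list were longer, 6.19% in TALL-1, 17.7% in CCRF-CEM, 26.9% in KOPT-K1 and 27.2% in DND-41. For MOLT-4, whose stretch lay inside the window, the share was 43.3%. Long gaps take up more sequence, and by length 33.5% of the interval-free sequence in HBP-ALL lay in longer gaps, 49.6% in TALL-1 and 61.5% in CCRF-CEM. It was 79.8% in KOPT-K1, 80.3% in DND-41 and 88.9% in MOLT-4. CCRF-CEM, HBP-ALL and TALL-1 shared the same empty window from its low end up to STIL. All lengths are distances in hg19. The deletion known in CCRF-CEM was not measured, so deleted DNA cannot be told apart there from DNA without a call.

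**Figure D3:**
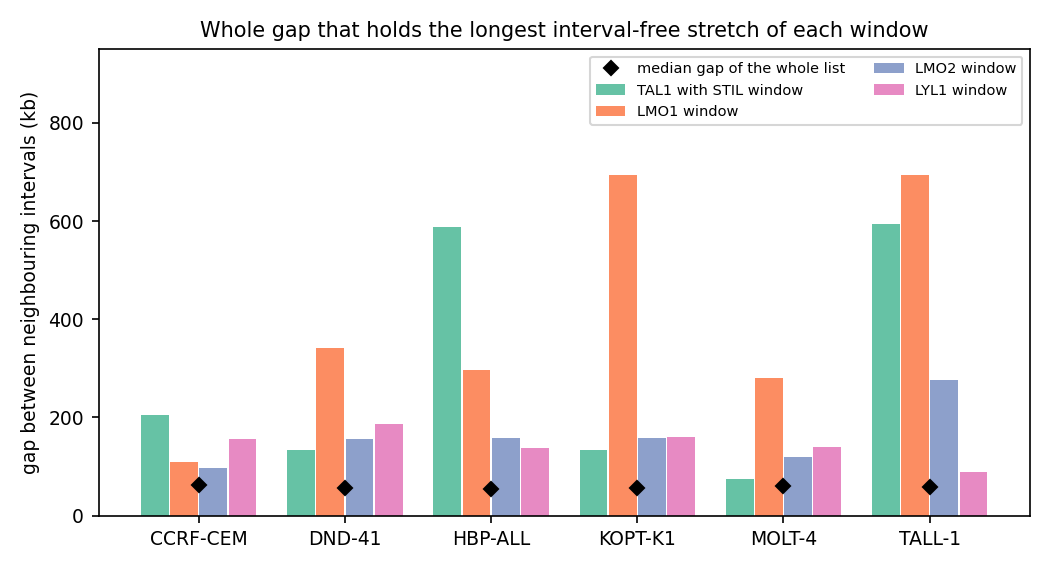
Whole gap in kb between the neighbouring intervals that bound the longest interval-free stretch of each window, for each line (bars), with the median of all gaps in that list (diamonds). The TAL1 with STIL gap is shortest in MOLT-4 (74.3 kb) and longest in TALL-1 and HBP-ALL (594.3 and 588.4 kb), and the LMO1 gap is longest in KOPT-K1 and TALL-1 (694.9 and 694.7 kb).

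At LMO1 every region belonged to 1 line. MOLT-4 had an interval inside LMO1, at 8289393 to 8289850 on chromosome 11 and close to the known upstream start of the gene, with a pileup of 17 (9.90 to 27.2) and a −log10 p of 10.6. HBP-ALL had one 15.4 kb further up, at 8305289 to 8305540, with a pileup of 20 and a −log10 p of 14.0. CCRF-CEM had 2 past the other end of the gene: the wide one, 762 bp from 8227680 to 8228441, had a pileup of 28 and was stronger than 86.2% of the 6420 regions of CCRF-CEM alone, and the narrow one at 8241005 to 8241228 had a pileup of 8 and was among the weakest 4.80% of the list.

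DND-41, KOPT-K1 and TALL-1 had nothing in the LMO1 window. The empty gap around it measured 694.9 kb in KOPT-K1, where 4.33% of gaps were longer and held 40.2% of the interval-free sequence. It measured 694.7 kb in TALL-1 (4.94% of gaps, 45.1% of the sequence) and 341.3 kb in DND-41 (10.9% and 59.4%).

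LMO2 had a region within a few kb of its known start that recurred in 5 lines. The region, from 33915301 to 33915810 on chromosome 11 and upstream of the distal LMO2 promoter, held a peak in every line but TALL-1. Its pileup was 17 in DND-41 and KOPT-K1, 23 in HBP-ALL and MOLT-4 and 37 in CCRF-CEM. CCRF-CEM, at 26.1 to 51.0 by its counting interval, had the highest pileup although its list had the lowest median pileup at shared regions, 31 against 36 to 44. Relative to those medians the site stood at 1.19 in CCRF-CEM, 0.64 in MOLT-4, 0.59 in HBP-ALL, 0.47 in KOPT-K1 and 0.425 in DND-41. By the authors' fold enrichment over local background CCRF-CEM did not lead: the fold was 7.54 in MOLT-4, 7.39 in CCRF-CEM, 7.38 in HBP-ALL, 6.38 in DND-41 and 4.80 in KOPT-K1. The line known for an LMO2 translocation, KOPT-K1, was lowest by fold, and its call, at a −log10 p of 9.03, is lost with a −log10 p of at least 10.

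The CCRF-CEM summit at the LMO2 site had the lowest position of the 5. It lay at 33915443, and those of the other lines lay at 33915538 (MOLT-4), 33915566 (HBP-ALL), 33915617 (DND-41) and 33915622 (KOPT-K1). The 5 summits spanned 179 bp. No spread was computed over all regions of 5 lines. Among regions shared by all 6 lines the median spread was 123 bp, and 25.0% exceeded 208 bp. The widths, 362 to 457 bp, were alike. CCRF-CEM alone had a further interval 1.63 kb below, at 33913037 to 33913674, close to the known distal start of LMO2, with 2 summits of 23 and 29 tags. Its 2 summits stood on a local background of about 4.1 tags (4.08 and 4.07), 5.87 times the lowest of the list at the stronger summit. At the 5-line site the background was 5.97 times the lowest in CCRF-CEM and 1.60 to 2.57 times in the other lines.

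TALL-1 lacked the LMO2 site, with its nearest interval 119.0 kb away. Regions with a peak in every line but TALL-1 made up 1.57% of all regions, 630 in number. Among these 630 the LMO2 site was of middling strength in MOLT-4, CCRF-CEM and HBP-ALL, above 57.0%, 53.5% and 49.5% of them by −log10 p, and of low strength in DND-41 (26.2%) and KOPT-K1 (17.3%).

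MOLT-4 had a pair of narrow intervals 40.7 kb above the LMO2 site, at 33956502 to 33956717 and at 33956973 to 33957192. They were 255 bp apart, with pileups of 12 and 9 and −log10 p values of 7.91 and 5.22. The second was among the weakest 1.19% of the MOLT-4 list. No other line had an interval between the 5-line site and the end of the window.

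At LYL1 CCRF-CEM had an interval at the known start of the gene and HBP-ALL one nearby. The CCRF-CEM interval lay at 13213781 to 13214073 on chromosome 19, with a pileup of 14 (7.65 to 23.5) over a background of 2.58, and was stronger than only 9.79% of the CCRF-CEM list. HBP-ALL had an interval 1.19 kb above it, at 13215261 to 13215577, with a pileup of 13 and above 7.79% of its list. Both sat at the weak end of their lists and did not overlap, and both are lost with a −log10 p of at least 10 and when lists are held to equal length. The third region of the window, at 13228950 to 13229276, lay away from LYL1 near the known start of NACC1, a transcriptional co-regulator gene. It had a pileup of 14 in KOPT-K1, 19 in HBP-ALL and 20 in MOLT-4, with summits within 14 bp. That combination of 3 lines made up 0.813% of all regions. CCRF-CEM, DND-41 and TALL-1 had no call there, and their nearest intervals lay 14.9, 33.3 and 31.6 kb away. Gene expression was not measured, and an open site does not show that the nearest gene was active.

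**Figure D4:**
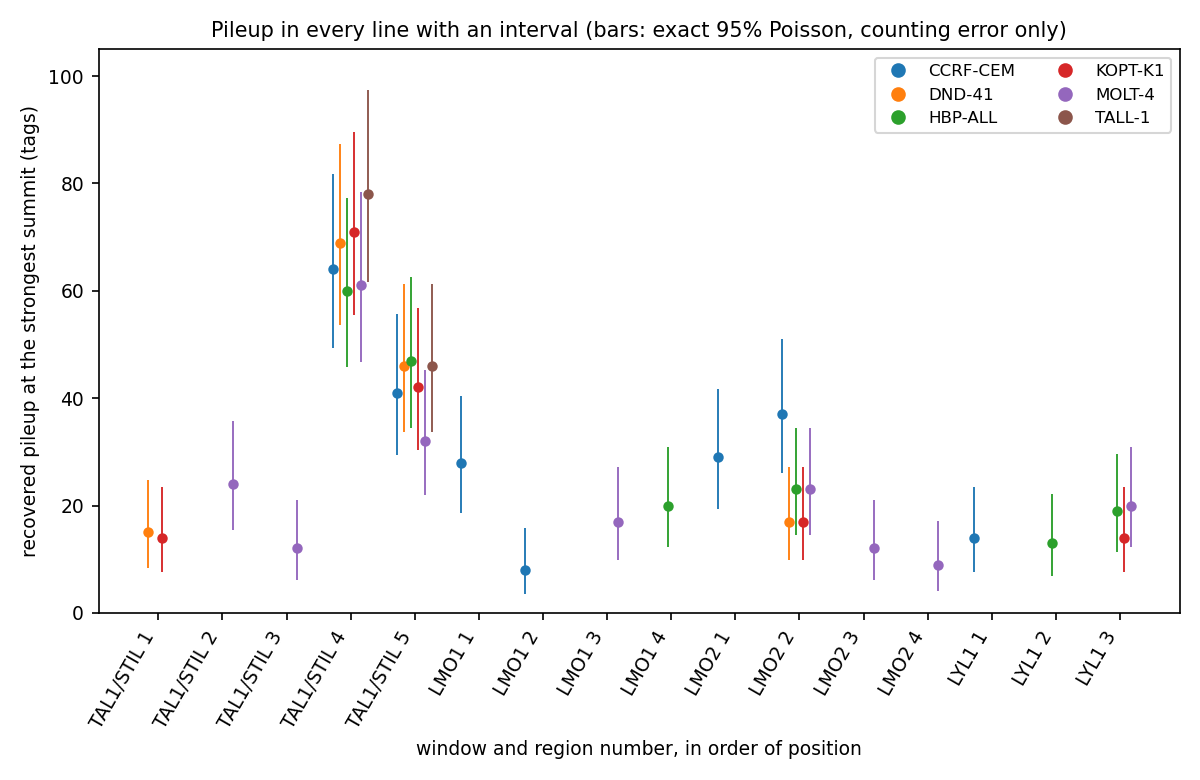
Recovered pileup in tags at the strongest summit of each of the 16 regions, for every line with an interval there, with exact 95% Poisson intervals (counting error only); regions are numbered from the low end of each window. The STIL region (TAL1/STIL 4) holds 60 to 78 tags in all 6 lines, the LMO2 site (LMO2 2) 17 to 37 in 5 lines, and the 11 regions of a single line 8 to 29.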

How the data were processed

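ATAC-seq peak lists of 6 T-ALL cell lines, 1 library each, were used. MACS2 2.1.1.2016030, Bowtie2, SAMtools, Picard and build hg19 are named in the submitters' processing notes; their settings, and any Tn5 shift, were not given in the sources used here. Each summit in the deposited lists has a score, a fold enrichment (ratio), a −log10 p-value and a −log10 q-value, all by the authors. The pileup t was recovered as the whole number that solves both fold = (t + 1) / (c + 1), with c the local background, and the upper Poisson tail above t at c, to 0.001 of the −log10 p; 99.9% to 100.0% of intervals per list were recovered, with pileups of up to 249 tried. Read totals are unknown; lists held 16507 to 22367 intervals on chromosomes 1 to 22 and X, covering 9.33 to 12.1 Mb.

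Within each list, entries with the same start and end were joined into 1 interval, keeping the strongest summit. Intervals overlapping by 1 bp were merged over lines. No test between lines was possible. All 16 regions of the windows are named, with every region of all 6 lines and each line's strongest among them. The members and the motifs were chosen with earlier results of these data known. No cell type markers were checked, since the peaks carry no gene names. Recovery and merging, tested on simulated data, were right for 100.0% of 3000 summits and 500 regions. The simulated summits were made with the formula that the recovery inverts, so this checks the code and not the authors' pileups. The lists also held lower pileups and backgrounds than were simulated. Alternatives were a −log10 p of at least 10, equal list lengths, shared summits within 250 bp, membership by summit, centring within the chromosome and fold in place of pileup. The tools were scipy 1.17.1, pandas 2.3.3, numpy 2.4.6 and matplotlib 3.10.9 under Python 3.11.15.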

Additional observations from a re-analysis of the deposited data

How the results depend on the processing

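Of 140 values recomputed under the alternatives, 127 stayed within 1.5 times the reported count or within the counting interval, and 13 did not. The 127 include counts of 0, which could not change where an alternative only removes intervals. They also include smaller moves. With a −log10 p of at least 10, MOLT-4 went from 4 to 3 intervals in the TAL1 with STIL window and its longest stretch from 74.3 to 88.1 kb. The 2 regions open in all 6 lines, the longest stretches at TAL1 and the relative pileups at STIL and CMPK1 were among the 127 under each alternative run for them, as were all counts with summits within 250 bp or summits inside the window. With a −log10 p of at least 10 the regions fell to 3 in the TAL1 with STIL window, 2 at LMO2 and 1 at LYL1. Intervals then fell to 1 for CCRF-CEM at LMO1, 0 for KOPT-K1 and 1 for MOLT-4 at LMO2, and 0 for CCRF-CEM, 1 for HBP-ALL and 0 for KOPT-K1 at LYL1. With equal numbers of the strongest intervals LYL1 kept 1 region, with 0 intervals in CCRF-CEM and 1 in HBP-ALL, and CCRF-CEM had 1 interval at LMO1. Both settings only remove the weaker intervals of a list, so the interval count of a line can only stay or fall. The MOLT-4 interval between TAL1 and STIL (−log10 p 5.13), the region of DND-41 and KOPT-K1 beyond TAL1 (9.82 and 9.58) and the CCRF-CEM interval at LYL1 (6.99) are thus below the stricter threshold. No paired analysis was possible because each line has 1 library. Read depth is unknown. At each list's lowest background a pileup under 6 to 9 tags could not reach the threshold, and higher backgrounds needed more. Why an interval is missing was not tested.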
